A study of Mus musculus with 5 samples.

Results

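The 10 genes followed here, of 33696 in the gene list, form the core of the Hippo pathway and its TEAD output in the mouse retina. They are the coactivators Yap1 and Wwtr1, the transcription factors Tead1, Tead2, Tead3 and Tead4, the TEAD cofactor Vgll4, and the upstream genes Lats1, Stk3 and Nf2. They were picked by symbol, and all 10 were present. Single-cell RNA sequencing (10x 3′ libraries) had been performed on retinal cells sorted by tdTomato to ask what Müller glia (MG) and their daughters had become after a pulse of YAP. The sort collected tdTomato-positive and -negative cells, and the paper names the positive ones as those sequenced. Whether negative cells also entered a library was not tested. All mice were Glast-CreERT2; Rosa26-Ai65 (C57BL/6J), aged 12 to 20 weeks and of both sexes, and all were given tamoxifen and an intravitreal AAV in the ShH10 capsid 56 days before collection. The mKate2 AAV (control) and the Yap5SA AAV, which encodes a YAP that Hippo kinases cannot switch off, both used the Gfap promoter and encoded FlpO, so that tdTomato required Cre and FlpO in the same cell. Retinas were pooled, 16 for the mKate2 AAV and 21 for the Yap5SA AAV, and the sources do not say how they were divided among libraries, so every p-value below measures the spread between libraries, which may be technical. The gene list held no entry for either AAV, so any vector UMIs counted as Yap1 cannot be told apart from those of the endogenous gene. In the vector FlpO follows Yap5SA, and how far these 3′ libraries counted vector RNA as Yap1 was not tested.

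The Hippo pathway is a kinase relay that keeps YAP and its paralog TAZ, the product of Wwtr1, out of the nucleus. STK3 (MST2) and its relatives activate LATS1, NF2 (Merlin) recruits LATS kinases to the membrane, and LATS1 phosphorylates YAP and TAZ, which are then held in the cytoplasm and degraded. When the relay is off, YAP and TAZ bind TEAD proteins, which carry the DNA-binding domain, and VGLL4 competes with them for the same TEAD surface. In the retina YAP is known as a protein of MG.

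Of the 5 libraries, Yap5SA AAV library 2 shared 1361 barcodes (99.8% of its own) with Yap5SA AAV library 1, no other pair shared more than 7, and library 2 was left out. In the other 4 libraries 10749 cells had at least 1000 UMIs and at most 15% mitochondrial UMIs. MG were the 6540 cells in which Glul, Rlbp1, Slc1a3, Clu and Aqp4 together made at least 0.5% of UMIs: 1498 and 2898 cells in mKate2 AAV libraries 1 and 2, and 803 and 1341 in Yap5SA AAV libraries 1 and 3. All 12 MG markers had UMIs in each library, 210 of these cells lay below 0.6%, and 193 cells outside lay at 0.4% or more. The labels call the samples purified MG, yet 928 other cells formed rod-like, 79 cone-like, 480 bipolar-like, 239 amacrine-like and 1177 microglia/macrophage-like clusters, named from marker genes after the 10 genes and the 2 pathway lists below had been removed from the clustering. The MG rule also took in 158 cells from clusters named as another type, 83 of them in a pigment epithelium-like cluster, and no test of a Hippo gene crossed the threshold when those 158 cells were removed. A further 2561 MG, 1964 of them from mKate2 AAV library 2, lay in clusters that could not be named. Among these clusters the astrocyte markers scored highest in the Dapl1-led (268 MG) and 2900052N01Rik-led (493 MG) ones. Pericyte or smooth muscle markers scored highest in the Igfbp2-led one (126 MG), and MG markers in the Gfap-led one (1473 MG). At Leiden resolution 0.5 a Dapl1-led cluster with 141 MG was named astrocyte-like. Whether these MG include astrocytes was not tested. MG in unnamed clusters include 192 cells of a cluster with cone genes (Pde6h, Opn1sw, Gnat2, Gngt2, Opn1mw and Pde6c) among its 10 leading genes. A further 88 MG, 47 of mKate2 AAV library 2 and 41 of Yap5SA AAV library 3, lay in a cluster led by Crybb2 and named MG, whose 10 leading genes were lens genes (9 crystallins and Mip). None of the clusters named MG had a marker of the MG list among its 10 leading genes. Without the Pde6h-led or without the Crybb2-led cluster, alternatives added after the values were seen, no call of a Hippo gene was gained or lost. Libraries stood apart. Their MG lay largely in different clusters, 51.3% of mKate2 AAV 1 in one led by S1pr1, 47.8% of mKate2 AAV 2 in one led by Gfap (unnamed), 61.5% of Yap5SA AAV 1 in one led by Lcn2 and 36.6% of Yap5SA AAV 3 in one led by Hbb-bs, so the AAV comparison sets MG of unlike clusters side by side. The median depth of MG ran from 2918.5 to 10778 UMIs per cell. A list of 15 dissociation stress genes (immediate early and heat shock), all with UMIs in each library, summed to 1031, 25288, 2589 and 16364 CPM (UMIs of a gene scaled to a common library total) in the order mKate2 AAV 1, mKate2 AAV 2, Yap5SA AAV 1 and Yap5SA AAV 3. The file headers named Cell Ranger 9.0.1 for mKate2 AAV 2 and Yap5SA AAV 3 but 8.0.0 for the others. The rod marker list summed to 9.66 to 1872 and the pigment epithelium list to 20.0 to 4340 CPM in MG. The astrocyte list summed to 90.3 to 547 CPM there. Levels are the CPM of summed cells, always given in that library order.

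Yap1 (chr9:7932000-8004661, minus strand, GRCm39) encodes YAP. In MG its level was 41.3, 37.3, 33.1 and 37.9 CPM. The 4 libraries were within 1.25-fold of each other and the AAV groups overlapped, at 39.3 ± 2.83 for mKate2 and 35.5 ± 3.38 for Yap5SA (SD, n = 2). Wwtr1 (chr3:57363067-57483331, minus strand) encodes TAZ. It stood at 64.7, 294, 82.6 and 190 CPM, a 4.55-fold range. Here the libraries paired by Cell Ranger version and not by AAV, and the group means were 180 ± 162 and 136 ± 75.7 CPM (SD, n = 2).

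The 250 bases before the outermost annotated start are shown for the genes that were higher in MG than in every other class under the test below (Yap1, Wwtr1 and Tead2, of which Wwtr1 kept this in 3 of 5 classes without a cluster described below) and for Tead1, in lower case with capitals at each match to the TEAD motif GGAATG on either strand. These reference sequences come from the GRCm39 genome with starts from the GENCODE annotation, and run 5′ to 3′ on the strand of the gene.
Yap1: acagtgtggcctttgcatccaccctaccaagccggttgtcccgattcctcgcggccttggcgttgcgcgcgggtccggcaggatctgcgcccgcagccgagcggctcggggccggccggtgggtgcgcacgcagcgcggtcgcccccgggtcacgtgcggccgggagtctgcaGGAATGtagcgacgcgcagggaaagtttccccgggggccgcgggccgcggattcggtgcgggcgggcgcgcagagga
Wwtr1: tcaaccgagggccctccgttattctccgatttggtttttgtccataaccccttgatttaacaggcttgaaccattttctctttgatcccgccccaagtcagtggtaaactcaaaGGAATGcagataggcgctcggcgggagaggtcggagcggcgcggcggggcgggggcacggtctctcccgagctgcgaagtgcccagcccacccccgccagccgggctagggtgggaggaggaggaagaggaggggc
Tead1: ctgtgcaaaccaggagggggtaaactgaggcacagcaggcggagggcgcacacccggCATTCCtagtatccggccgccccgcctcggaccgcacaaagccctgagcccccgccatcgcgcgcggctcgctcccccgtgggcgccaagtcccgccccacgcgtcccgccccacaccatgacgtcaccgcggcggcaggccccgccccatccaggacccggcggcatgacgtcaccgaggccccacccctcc
Tead2: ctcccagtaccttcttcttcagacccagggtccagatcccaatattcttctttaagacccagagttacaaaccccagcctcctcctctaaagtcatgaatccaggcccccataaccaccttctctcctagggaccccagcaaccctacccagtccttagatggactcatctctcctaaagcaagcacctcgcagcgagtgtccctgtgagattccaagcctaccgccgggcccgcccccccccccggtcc
The Yap1 window (chr9:8004662-8004911) held its match with the first base 77 bases before the start, the Wwtr1 window (chr3:57483332-57483581) 136 bases before it and the Tead1 window (chr7:112278272-112278521) 193 bases before it, while these letters were not in the Tead2 window (chr7:44864922-44865171). Over all 10 genes 4 windows held the motif (Yap1, Wwtr1, Tead1 and Tead3), against 12.4% of the 21770 windows of protein-coding genes. The AP-1 motif TGANTCA was in 0 of the 10 windows and in 6.46% of all. The share of G and C was 74% for Yap1 and Tead1, 61.6% for Wwtr1 and 57.2% for Tead2, against a median of 51.2% (quartiles 44.8% and 58.4%) over all windows. A match of letters is a description of sequence and not of binding.

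The TEAD genes encode the DNA-binding partners. Tead1 (chr7:112278522-112506014, plus strand) was at 124, 137, 141 and 145 CPM in MG. Both Yap5SA libraries lay above both mKate2 libraries, by a margin of a few CPM. Tead2 (chr7:44865172-44883071, plus strand, overlapping Cd37 on the other strand) was at 28.6, 19.2, 15.2 and 28.2 CPM, and each group held a high and a low library. Tead3 (chr17:28550645-28569791, minus strand) was at 11.4, 11.3, 9.25 and 7.91 CPM, with both mKate2 libraries above both Yap5SA libraries. Tead4 (chr6:128201251-128277786, minus strand) gave 6, 19, 19 and 2 UMIs in MG, or 0.505, 1.02, 1.97 and 0.255 CPM. It was the sparsest of the 10 in UMIs, and each group held a high and a low library, the interval of Yap5SA AAV library 1 (1.19 to 3.08) lying above that of mKate2 AAV library 1 (0.185 to 1.099).

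Vgll4 (chr6:114837589-114946955, minus strand) encodes a cofactor that displaces YAP from TEAD. Its level in MG was 79.3, 85.2, 77.8 and 95.6 CPM, within 1.23-fold, and the groups overlapped. Lats1 (chr10:7556736-7592226, plus strand, overlapping Pcmt1 on the other strand) encodes the kinase that phosphorylates YAP. It was at 65.6, 41.6, 44.8 and 42.1 CPM, with mKate2 AAV library 1 above the other 3. Stk3 (chr15:34874700-35179067, minus strand), the kinase upstream of LATS1, was at 92.4, 69.8, 103 and 78.9 CPM, and the groups overlapped. Nf2 (chr11:4715841-4799536, minus strand), the membrane scaffold, was at 40.9, 37.3, 35.8 and 30.1 CPM, falling in both Yap5SA libraries below both mKate2 libraries.

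**Figure D1:**
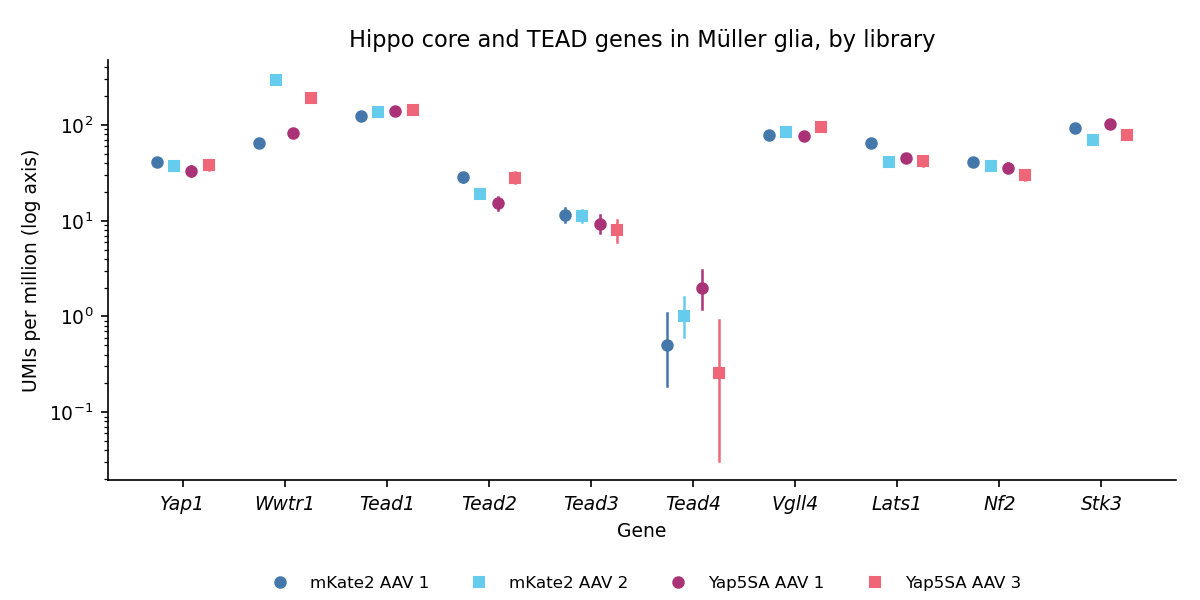
Level of each of the 10 genes in MG, in CPM on a log axis, by library, with exact 95% binomial intervals for counting error (hidden by the symbol where narrow). Wwtr1 is high in mKate2 AAV 2 (294) and Yap5SA AAV 3 (190), whereas Yap1 keeps within 33.1 to 41.3.

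Did the Yap5SA AAV leave a mark on these genes at 56 days? By that time, the paper reports, YAP5SA protein was lost in stained sections and on Western blot, and proliferation had ceased. Groups did not overlap for 3 of the 10 genes, namely Tead1, Tead3 and Nf2, against 15.4% of all 15285 genes tested (11.9% with Yap5SA higher, as for Tead1, and 3.49% with mKate2 higher, as for Tead3 and Nf2). edgeR's quasi-likelihood test called 0 of the 10 genes at an adjusted p under 0.05, where 0% of the tested genes passed (30 of them before adjustment). DESeq2 also called 0, with 91 before adjustment. Before adjustment none of the 10 reached 0.05 with either tool. With 2 libraries in each group, 0 calls do not show that levels were unchanged. The estimates of log2 fold change, Yap5SA over mKate2, were -0.24 ± 0.25 for Yap1, -0.56 ± 0.91 for Wwtr1, 0.03 ± 0.25 for Tead1, -0.21 ± 0.41 for Tead2, -0.51 ± 0.35 for Tead3, 0.39 ± 1.14 for Tead4, -0.03 ± 0.26 for Vgll4, -0.38 ± 0.26 for Lats1, -0.34 ± 0.24 for Nf2 and 0.08 ± 0.25 for Stk3 (± SE, adjusted p = 1.00 for each in edgeR). The error of Wwtr1 was wider than that of Yap1, and only Tead4 had a larger one. With Cell Ranger version as a term 0 of the 10 were called (154 of all genes before adjustment), and Yap1 was at -0.25 and Wwtr1 at -0.24.

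Within a Cell Ranger version the 2 available pairs often disagreed. The Yap5SA-to-mKate2 ratio of Wwtr1 was 1.28 (95% counting interval 1.15 to 1.41) in the 8.0.0 pair and 0.644 (0.608 to 0.682) in the 9.0.1 pair. That of Tead2 was 0.530 (0.433 to 0.645) and 1.47 (1.24 to 1.75), and that of Lats1 was 0.683 (0.606 to 0.769) and 1.01 (0.888 to 1.15). Tead4 gave 3.91 (1.5004 to 11.96) and, on 2 UMIs in the Yap5SA library, 0.2498 (0.0282 to 1.04). For Wwtr1 and Tead2 the pairs thus moved in opposite directions with both intervals clear of 1, and for Tead4 with that of the 8.0.0 pair clear of 1. Yap1 gave 0.802 (0.694 to 0.925) and 1.02 (0.883 to 1.17), and Vgll4 0.981 (0.890 to 1.08) and 1.12 (1.03 to 1.23). Ratios on the same side of 1 in both pairs were found for Tead1 (1.14 and 1.06), Stk3 (1.12 and 1.13), Nf2 (0.876 and 0.808) and Tead3 (0.808 and 0.701). Of these only the Stk3 intervals lay clear of 1 in both pairs, since that of Tead1 reached down to 0.985 in the 9.0.1 pair and those of Nf2 and Tead3 reached up to 1.01 and 1.06 in the 8.0.0 pair. These intervals cover counting error only, with 1 library on each side.

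The microglia/macrophage-like cells, which are not the target of the AAV, were compared under the same contrast. In mKate2 AAV library 2, 410 of the 924 lay in a cluster led by Igkc, with 5 immunoglobulin or plasma cell genes (Igkc, Ighg2c, Jchain, Iglv1 and Ighv14-4) and 1 gene of the fixed microglia/macrophage list (Cd74) among its 10 leading genes. Only 5 of the 10 genes had enough UMIs there for edgeR, and 0 of the 5 were called (0% of 9100 genes called, 99 at an unadjusted p under 0.05, and the same counts with DESeq2's size factors). Wwtr1 had the widest error of the 5, -1.09 ± 0.74, and Stk3, Lats1 and Nf2 were at 0.50 ± 0.42, 0.48 ± 0.61 and 0.48 ± 0.52. The test of the difference of the AAV effects between MG and these cells called 0 of 9 Hippo genes, where it called 6 of 16215 genes (0.0370%) with edgeR, and none of the 9 had an unadjusted p under 0.05. The largest estimate was that of Tead1, 1.89 ± 0.99, on 0.468 to 7.51 CPM in microglia/macrophages. Over all alternatives it ran from 0.194 to 3.78, and that of Yap1 from 0.249 to 7.38. Without the Igkc-led cluster, an alternative added after the values were seen, edgeR called 0 of the 5 Hippo genes in these cells and 0 of 9 in the test of the difference (3 of all genes), where Tead1 was at 2.44 ± 1.01 and passed 0.05 before adjustment (adjusted p = 1). Yap1, Wwtr1, Tead1, Tead2, Tead3 and Lats1 were called higher in MG than in these cells both with and without that cluster.

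Contrasted by Cell Ranger version in place of AAV, a comparison added after the values were seen, 220 of 15285 genes were called by edgeR (1.44%) and 0 of the 10. Wwtr1 was the 1 gene of the 10 with an unadjusted p under 0.05, at a log2 fold change of 1.88 ± 0.32 in the 9.0.1 libraries (adjusted p = 0.0583), and at 1.83 with the AAV as a second term (adjusted p = 0.268). In the library order the median mitochondrial share of MG was 2.85%, 7.18%, 2.65% and 5.78%. Their median depth was 6194.5, 2918.5, 10778 and 2920 UMIs, and their rod list was at 114, 944, 9.66 and 1872 CPM. Software version, stress list, mitochondrial share, depth, rod list and share of cells in the cluster described next moved together over these 4 libraries and cannot be told apart.

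The Wwtr1 difference between libraries lay in few cells. A cluster of 354 MG led by Ccn1, Maff, Vcl, Dnajb1 and Egr3 held 0, 261, 7 and 86 cells of the 4 libraries, or 0%, 9.01%, 0.872% and 6.41% of MG. It held 87.7% of all Wwtr1 UMIs of mKate2 AAV library 2 and 75.03% of those of Yap5SA AAV library 3. Its cells were deep, so its share of cells is not the measure for these. In the same libraries it held 51.6% and 36.4% of Yap1 UMIs, 63.1% and 39.2% of Tead1 and 28.4% and 27.6% of Tead2. Inside it Wwtr1 was at 573 CPM (4800 UMIs) and 431 CPM (1115 UMIs) in those libraries. Without it the 4 libraries were at 64.7, 66.0, 81.5 and 70.7 CPM, the lowest being mKate2 AAV library 1. Neither Yap1 nor Tead1 behaved in the same way. Yap1 was at 42.7 and 41.7 CPM inside the cluster and at 41.3, 32.9, 33.1 and 36.0 CPM without it. Tead1 was at 192 and 172 CPM inside and at 124, 92.1, 142 and 132 CPM without it, which put mKate2 AAV library 2 lowest.

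Cells of this cluster were the deepest, with medians of 23650 and 26712 UMIs, and their stress list summed to 50416 and 43875 CPM, the heat shock and immediate early genes being among the cluster's own leading genes. Removing it brought the stress list from 25288 to 4685 CPM in mKate2 AAV library 2 and from 16364 to 2781 in Yap5SA AAV library 3. The part of depth and of the stress genes in the Wwtr1 level was not tested. Another cluster, led by Gm11906, had Wwtr1 at 239 CPM (58 cells) and 153 CPM (96 cells) with a stress list of 2457 and 1908 CPM, and it was also where Tead1 (290 and 261 CPM), Vgll4 (140 and 132) and Stk3 (258 and 157) were highest among clusters with at least 50 cells of a library. The ribosomal share of UMIs was lowest in these same clusters, 0.950% and 1.23% in the Gm11906-led and 2.83% and 1.65% in the Ccn1-led one, against 2.98% to 19.6% in the others of that size, and its part in the levels was not tested. In those others Wwtr1 ran from 7.85 to 117 CPM. Because clusters were formed on these cells' own expression, these differences are descriptions without a test.

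**Figure D2:**
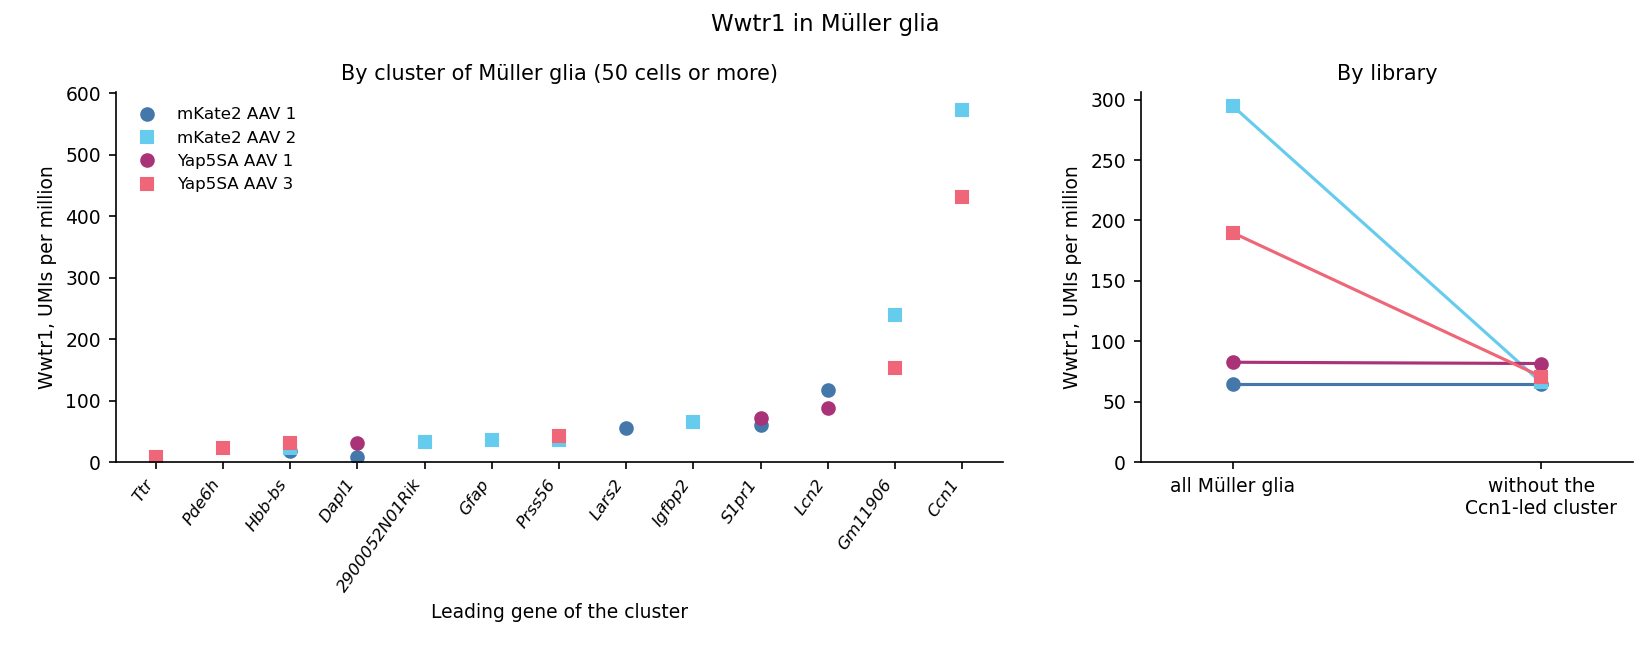
Left, Wwtr1 in CPM in each cluster of MG with at least 50 cells of a library, named by its leading gene; right, Wwtr1 per library over all MG and without the Ccn1-led cluster. The cluster led by Ccn1 reaches 573 and 431, and without it the libraries meet at 64.7 to 81.5.

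How do MG compare with the other cells of the same libraries? MG sums were tested against each class with the library as a block, over 16 sums of at least 20 cells. Microglia/macrophages were present in all 4 libraries and the neurons only in mKate2 AAV library 2 and Yap5SA AAV library 3. Of the 9 genes that passed the filter on low counts (Tead4 did not), edgeR called 5 higher in MG than in rods (28.1% of 16441 genes were called higher), 4 than in cones (25.2%), 6 than in bipolar cells (25.6%), 5 than in amacrine cells (23.6%) and 6 than in microglia/macrophages (31.8%). None was called lower in MG in any of the 5 contrasts, where 12.9% to 22.3% of all genes were. Yap1, Wwtr1 and Tead2 passed in all 5, Vgll4 in 4, Tead1 and Tead3 in 3, Lats1 in 1, and Nf2 and Stk3 in 0. Without the Ccn1-led cluster Wwtr1 and Vgll4 passed in 3 each and the other counts were the same. Ratios of levels pooled over libraries, MG over the other class, were above 1 for some pairs and below 1 for others. Among the latter were Tead3 (0.459, 95% counting interval 0.378 to 0.558) and Lats1 (0.576, 0.519 to 0.638) over rods. Nf2 over bipolar cells was at 0.603 (0.542 to 0.670) and Stk3 over amacrine cells at 0.700 (0.633 to 0.776). These intervals cover counting error only. Folds below are log2, MG over the other class, and the median over all genes was 0.17 to 0.46 with TMM scaling and -0.03 to 0.34 with DESeq2's size factors. Thinning each cell to 1000 UMIs left Wwtr1, Tead1, Vgll4, Lats1, Nf2 and Stk3 in the test, so that Yap1, Tead2 and Tead3 have no thinned value.

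Yap1 was higher in MG than in each other class. It was at 1.45 and 1.38 CPM in rods, 5.66 and 5.91 in cones, 16.1 and 16.6 in bipolar cells and 8.60 and 7.19 in amacrine cells (mKate2 AAV 2 and Yap5SA AAV 3), and at 2.16, 2.32, 1.87 and 0 in microglia/macrophages. The order MG, bipolar, amacrine, cone held with no overlap between neighbours, and microglia/macrophages and rods overlapped at the bottom. MG exceeded rods by 4.85 ± 0.48 (edgeR, adjusted p = 6.59e-07), microglia/macrophages by 3.79 ± 0.37 (3.14e-07), cones by 3.14 ± 0.49 (1.04e-04), amacrine cells by 2.54 ± 0.41 (1.26e-04) and bipolar cells by 1.42 ± 0.37 (0.00473). The other 4 calls held in each alternative run. The last rested on both libraries with bipolar cells, being 1.12 (adjusted p = 0.290) without mKate2 AAV library 2 and 1.57 (0.151) without Yap5SA AAV library 3, with adjusted p from 0.00307 to 0.290 over all alternatives.

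MG markers also gave UMIs in the other classes, and whether these came from free RNA or from doublets was not tested. All 12 summed to 20327 to 33142 CPM in microglia/macrophages against 26892 to 33865 in MG, a list that includes Apoe and Vim, which macrophages are known to express, and to 307 to 966 CPM in neurons (rods, cones, bipolar and amacrine cells). The 5 MG rule markers, summed, were at 3.52% and 1.67% of their MG level in rods and at 1.35% to 2.50% in microglia/macrophages, and Yap1 was at 3.88% and 3.63% in rods and at 0 to 6.22% in microglia/macrophages, on 1, 13, 4 and 0 UMIs. Yap1 in bipolar cells was at 43.1% and 43.8% of its MG level, above the 2.40% and 1.36% of the markers there. It varied among bipolar clusters, from 3.51 CPM (5 UMIs) in the Nxph1-led cluster to 31.0 CPM (36 UMIs) in the Gm30439-led one in mKate2 AAV library 2. The Il1rapl2-led cluster was at 24.2 CPM (46 UMIs) there and at 42.0 CPM (16 UMIs) in Yap5SA AAV library 3, above the 37.9 CPM of MG in that library, while MG clusters of at least 50 cells of a library ran from 9.78 to 62.2 CPM.

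Wwtr1 was at 122 and 51.8 CPM in rods, 59.5 and 35.4 in cones, 3.87 and 10.1 in bipolar cells, 4.57 and 3.59 in amacrine cells and 10.8, 39.2, 10.3 and 18.7 in microglia/macrophages. Rods and cones were therefore high and the inner neurons low, and the range of MG over all 4 libraries overlapped that of rods. Within each library with rods, MG lay above them (294 against 122 and 190 against 51.8 CPM). MG exceeded amacrine cells by 6.24 ± 0.54 (edgeR, adjusted p = 2.62e-07), bipolar cells by 5.6 ± 0.50 (3.11e-07), cones by 2.81 ± 0.42 (7.15e-05), microglia/macrophages by 2.55 ± 0.32 (4.71e-06) and rods by 1.66 ± 0.38 (0.00188). Both photoreceptor calls were lost without the Ccn1-led cluster, where the difference from rods was 0.32 (adjusted p = 0.601) and that from cones 1.29 (0.0662). They were also lost with each cell thinned to 1000 UMIs, at 0.56 (0.302) and 1.73 (0.110), and the rod call also without Yap5SA AAV library 3, at 1.56 (0.0528). Over all alternatives the adjusted p ran from 2.72e-06 to 0.601 for rods and from 5.32e-11 to 0.110 for cones. Against bipolar cells, amacrine cells and microglia/macrophages the calls were kept in each alternative.

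Wwtr1 also varied among microglia/macrophages. In the Cxcl2-led microglia/macrophage cluster it was at 0, 118 and 11.3 CPM in the first 3 libraries, where the stress list was at 11418, 20012 and 9363 CPM. The part of the stress list in this was not tested.

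**Figure D3:**
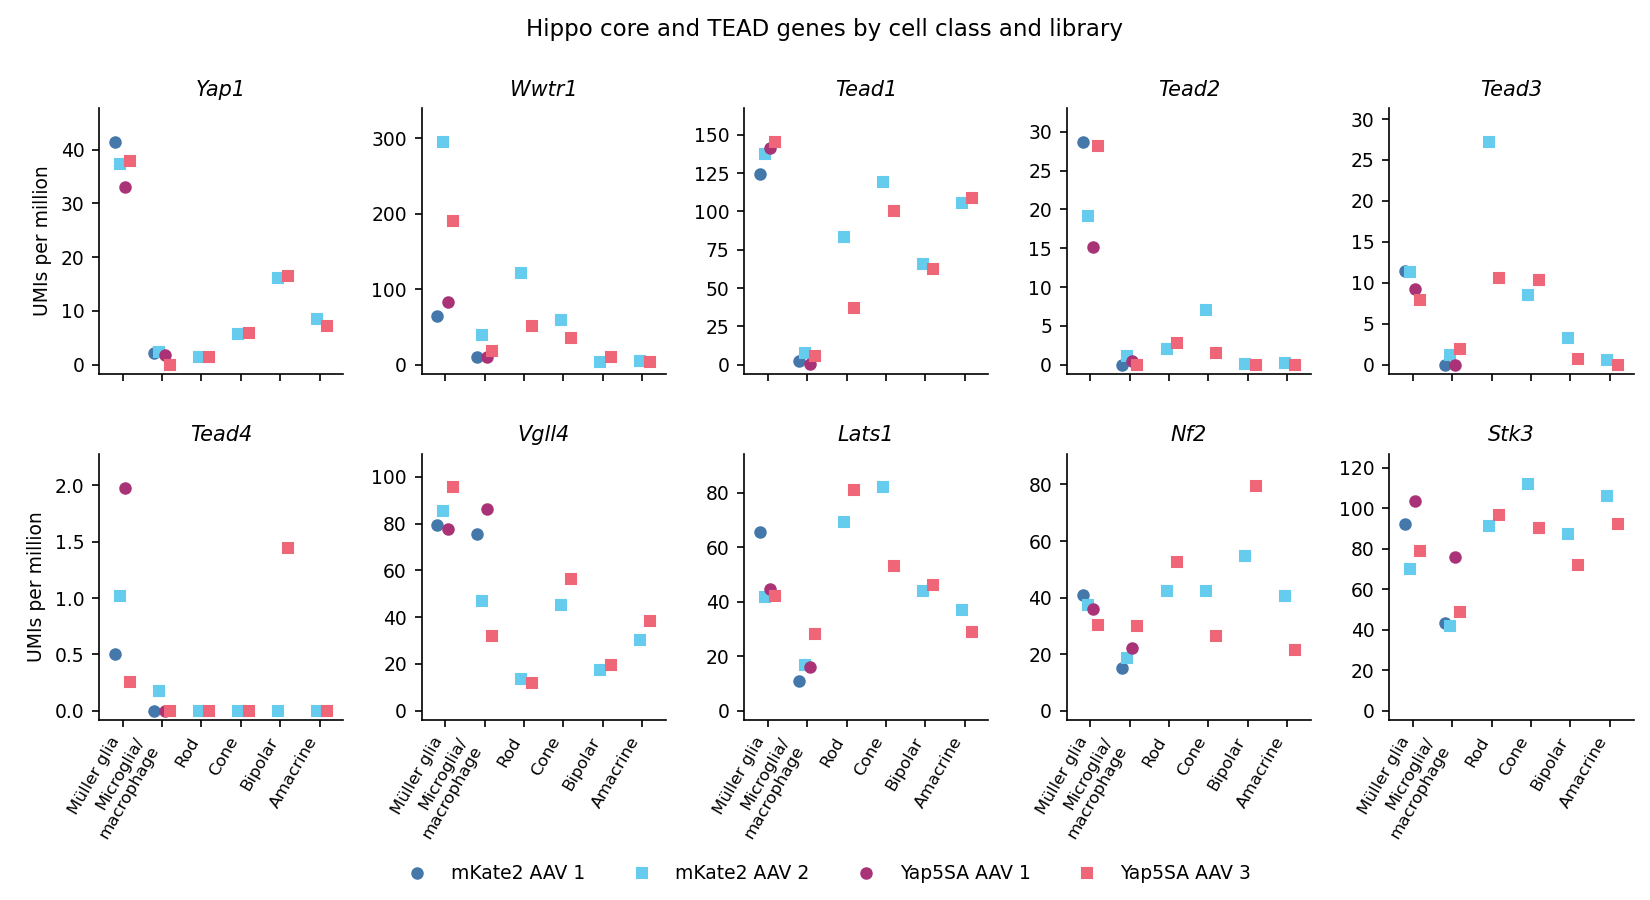
Level of each gene in CPM by cell class, 1 point for each library with at least 20 cells of the class. Yap1 and Tead2 are highest in MG in every library that has them, and Stk3 is spread over all classes, with microglia/macrophages lowest on average.

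Tead1 was at 83.2 and 37.1 CPM in rods, 119 and 100 in cones, 65.7 and 62.8 in bipolar cells, 105 and 109 in amacrine cells, and 2.16, 7.51, 0.468 and 5.61 in microglia/macrophages. MG lay above all of them with no overlap, cones and amacrine cells overlapped, and microglia/macrophages were far below the neural cells. Without the Ccn1-led cluster, MG of mKate2 AAV library 2 were at 92.1 CPM, below the cones (119) and amacrine cells (105) of that library. Those of Yap5SA AAV library 3, at 132 CPM, stayed above both. MG exceeded microglia/macrophages by 4.65 ± 0.44 (edgeR, adjusted p = 5.23e-07), rods by 1.65 ± 0.46 (0.00830) and bipolar cells by 1.61 ± 0.46 (0.0103). The differences from cones (1.06 ± 0.46, 0.0848) and amacrine cells (0.95 ± 0.45, 0.109) did not pass, though both did with no filter on low counts (1.18 and 1.04) and that from cones also in MG-named clusters alone (1.25). The rod and bipolar calls were lost on thinning, at 0.95 (0.0661) and 0.61 (0.316), and without 1 library each, Yap5SA AAV library 3 for rods (1.62, 0.0629) and mKate2 AAV library 2 for bipolar cells (1.42, 0.0773). Adjusted p ranged from 6.52e-06 to 0.0661 for rods and from 7.68e-05 to 0.316 for bipolar cells over all alternatives. Among bipolar clusters Tead1 ran from 10.3 CPM (Prkca-led, a marker of rod bipolar cells) to 110 CPM (Il1rapl2-led) in mKate2 AAV library 2.

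Tead2 was nearly absent from inner neurons. Bipolar cells gave 1 UMI of it in the 402 and 75 cells of the 2 libraries and amacrine cells 1 UMI in 239, against 577 UMIs in MG of the same libraries. Ratios of the pooled levels were 211 (95% counting interval 37.7 to 8338) over bipolar and 99.5 (17.8 to 3937) over amacrine cells. Rods were at 1.99 and 2.75 CPM, cones at 7.08 and 1.48, and microglia/macrophages at 0, 1.07, 0.468 and 0. MG exceeded microglia/macrophages by 4.39 ± 0.56 (edgeR, adjusted p = 5.54e-06), rods by 3.53 ± 0.58 (1.09e-04) and cones by 2.93 ± 0.67 (0.00231), the last being 2.23 (0.166) without Yap5SA AAV library 3 and from 1.02e-04 to 0.166 in adjusted p over all alternatives. In the contrasts with bipolar and amacrine cells the gene passed as well (adjusted p = 2.93e-06 and 1.37e-05), and its fitted fold depends there on the prior count. Among MG clusters its level was highest, 52.3 CPM (21 UMIs), in 149 cells of Yap5SA AAV library 3 in an unnamed cluster led by the cone gene Pde6h, where Yap1 was at 12.5 CPM (5 UMIs).

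Tead3 had a different distribution, and within each library with rods their level lay above that of MG (11.3 and 7.91 CPM). Rods were at 27.1 and 10.5 CPM and cones at 8.49 and 10.3, overlapping the 7.91 to 11.4 CPM of MG, while bipolar cells were at 3.27 and 0.721, amacrine cells at 0.537 and 0 (2 UMIs in all) and microglia/macrophages at 0, 1.25, 0 and 1.87. MG did not differ by the test from rods (-0.62 ± 0.55, adjusted p = 0.378) or cones (0.58 ± 0.66, 0.529) and exceeded microglia/macrophages (3.27 ± 0.63, 3.67e-04) and bipolar cells (2.50 ± 0.65, 0.00504) in edgeR. Over amacrine cells the pooled ratio was 23.5 (counting interval 6.43 to 195; edgeR, adjusted p = 3.78e-04). The bipolar call was lost without mKate2 AAV library 2 (3.63, 0.0987) or Yap5SA AAV library 3 (2.40, 0.0655) and the amacrine call without mKate2 AAV library 2 (adjusted p = 0.0677), with adjusted p from 2.79e-04 to 0.0987 and from 2.11e-07 to 0.0677 over all alternatives. Tead4 had 0 UMIs in rods, cones and amacrine cells, 2 in bipolar cells and 1 in microglia/macrophages, and the filter on low counts left it out of the test. With no filter edgeR did not call it in any contrast (adjusted p = 0.0742 against rods to 0.577 against bipolar cells), nor did the other alternatives in which it had an adjusted p (0.0991 to 0.557). The pooled ratio of MG over microglia/macrophages was 8.38 (95% counting interval 1.43 to 338), and over bipolar cells 3.83 (0.937 to 33.7). For rods, amacrine cells and cones, with 0 UMIs, the lower bounds of that interval were 1.52, 0.898 and 0.273, so the interval lay above 1 for microglia/macrophages and rods and not for the other 3.

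Vgll4 was at 13.4 and 11.9 CPM in rods, 17.5 and 19.5 in bipolar cells, 30.1 and 38.3 in amacrine cells, 45.3 and 56.1 in cones, and 75.7, 47.0, 86.2 and 31.8 in microglia/macrophages. The 4 kinds of neuron kept this order without overlap, all below MG, and microglia/macrophages overlapped MG. MG exceeded rods by 2.74 ± 0.36 (edgeR, adjusted p = 1.11e-05), bipolar cells by 2.30 ± 0.35 (5.99e-05), amacrine cells by 1.53 ± 0.34 (0.00187) and cones by 1.07 ± 0.35 (0.0221), and not microglia/macrophages (0.18 ± 0.25, 0.571). The cone call did not hold with DESeq2's size factors (0.88, 0.0558), with DESeq2 itself (0.88, 0.0638), on thinning (2.13, 0.0695), without the Ccn1-led cluster (0.76, 0.0776) or without either library (0.59, 0.514, and 1.34, 0.165), and its adjusted p spanned 0.0129 to 0.514. The amacrine call was lost on thinning (0.84, 0.248) and without mKate2 AAV library 2 (1.05, 0.216), over a span of 2.38e-04 to 0.248.

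Lats1 had another order among neurons, with rods (69.1 and 81.1 CPM) and cones (82.1 and 53.2) at the top, bipolar cells at 44.0 and 46.2, amacrine cells at 36.8 and 28.8, and microglia/macrophages at 10.8, 16.6, 15.9 and 28.0. The MG range of 41.6 to 65.6 overlapped that of cones and bipolar cells. MG exceeded microglia/macrophages by 1.06 ± 0.29 (edgeR, adjusted p = 0.00553), and the differences from neurons were 0.83 ± 0.37 (amacrine, 0.0849), 0.30 ± 0.35 (bipolar, 0.519), -0.05 ± 0.37 (cone, 0.936) and -0.53 ± 0.35 (rod, 0.228), none of which passed. Within each library with neurons, MG lay below rods and cones in CPM. They also lay below bipolar cells in mKate2 AAV library 2 (41.6 against 44.0) and Yap5SA AAV library 3 (42.1 against 46.2). The folds are TMM-scaled and the CPM are not, so small folds can differ from them in sign.

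Stk3 was at 91.4 and 96.7 CPM in rods, 112 and 90.1 in cones, 87.1 and 72.1 in bipolar cells, 106 and 92.3 in amacrine cells, and 43.3, 41.7, 75.9 and 48.6 in microglia/macrophages. Every class overlapped its neighbour in the order of means. Within each library with neurons, rods, cones and amacrine cells lay above MG (69.8 and 78.9 CPM). The log2 differences were between -0.18 ± 0.26 (rod) and 0.38 ± 0.20 (microglia/macrophage), with none called by edgeR (adjusted p = 0.122 to 0.927). On thinning MG were lower than amacrine cells (-1.35, adjusted p = 0.0206), and in MG-named clusters alone they were higher than microglia/macrophages (0.52, 0.0451), so the call of this gene depended on which cells entered and how they were weighed. Nf2 was at 54.8 and 79.4 CPM in bipolar cells, 42.2 and 52.7 in rods, 42.5 and 26.6 in cones, 40.6 and 21.6 in amacrine cells, and 15.1, 18.8, 22.0 and 29.9 in microglia/macrophages. Bipolar cells lay above every other class without overlap, but their difference from MG of -0.65 ± 0.35 did not pass (edgeR, adjusted p = 0.147), nor did the other 4, from -0.26 ± 0.35 (rod) to 0.53 ± 0.40 (cone).

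**Figure D4:**
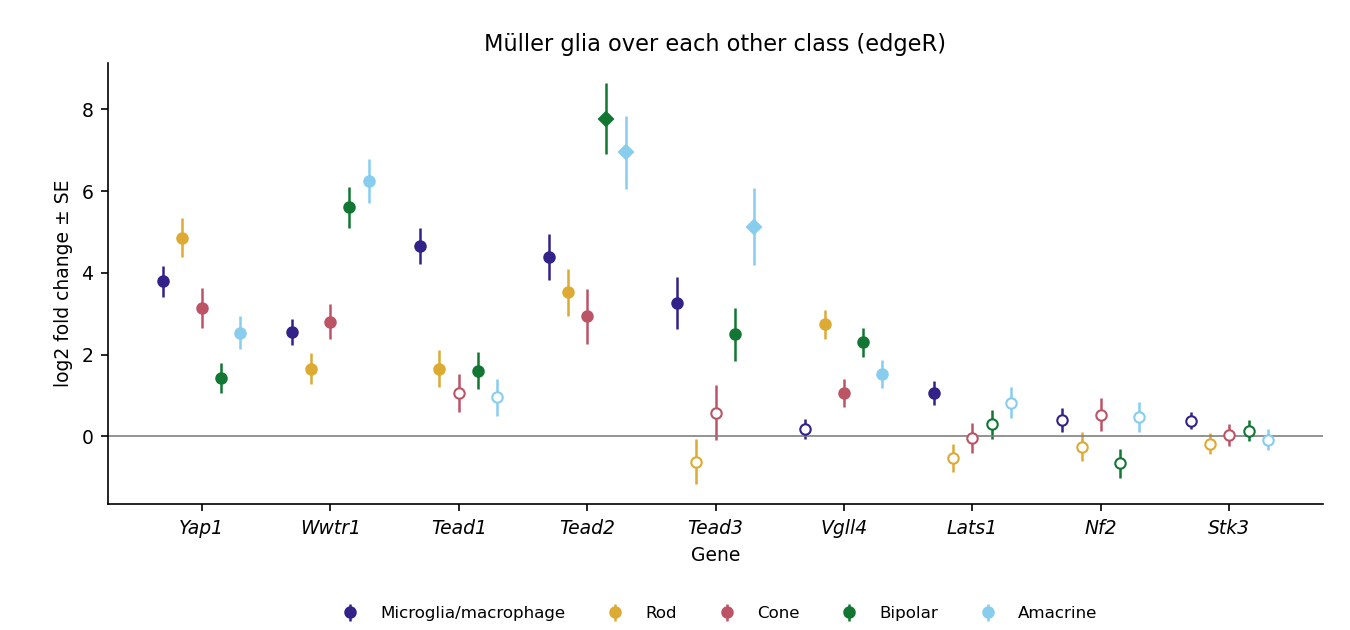
log2 fold change of MG over each other class (edgeR, ± SE) for the 9 genes tested, filled where the adjusted p was under 0.05 and as diamonds where the other class had 3 or fewer UMIs. Yap1, Wwtr1 and Tead2 are filled in all 5 contrasts, and Nf2 and Stk3 in 0.

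Levels also moved with the depth of the cell inside MG. Between MG of 1000 to under 2000 UMIs and MG of 8000 or more, Stk3 rose 3.25-, 2.88-, 4.77- and 4.22-fold over the 4 libraries and Wwtr1 2.00-, 13.2-, 5.67- and 7.82-fold. Tead1 was 1.55-, 2.56-, 1.26- and 2.65-fold higher in the deep cells. Those 3 genes were higher in deep cells in every library, although the shallow band of Yap5SA AAV library 1 held only 2 UMIs of Wwtr1 and 3 of Stk3. Yap1 was at 0.951, 1.15, 2.21 and 1.65 times its shallow level, the third on 2 shallow UMIs, and Tead2 at 1.38, 0.511, 0.691 and 0.510.

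**Figure D5:**
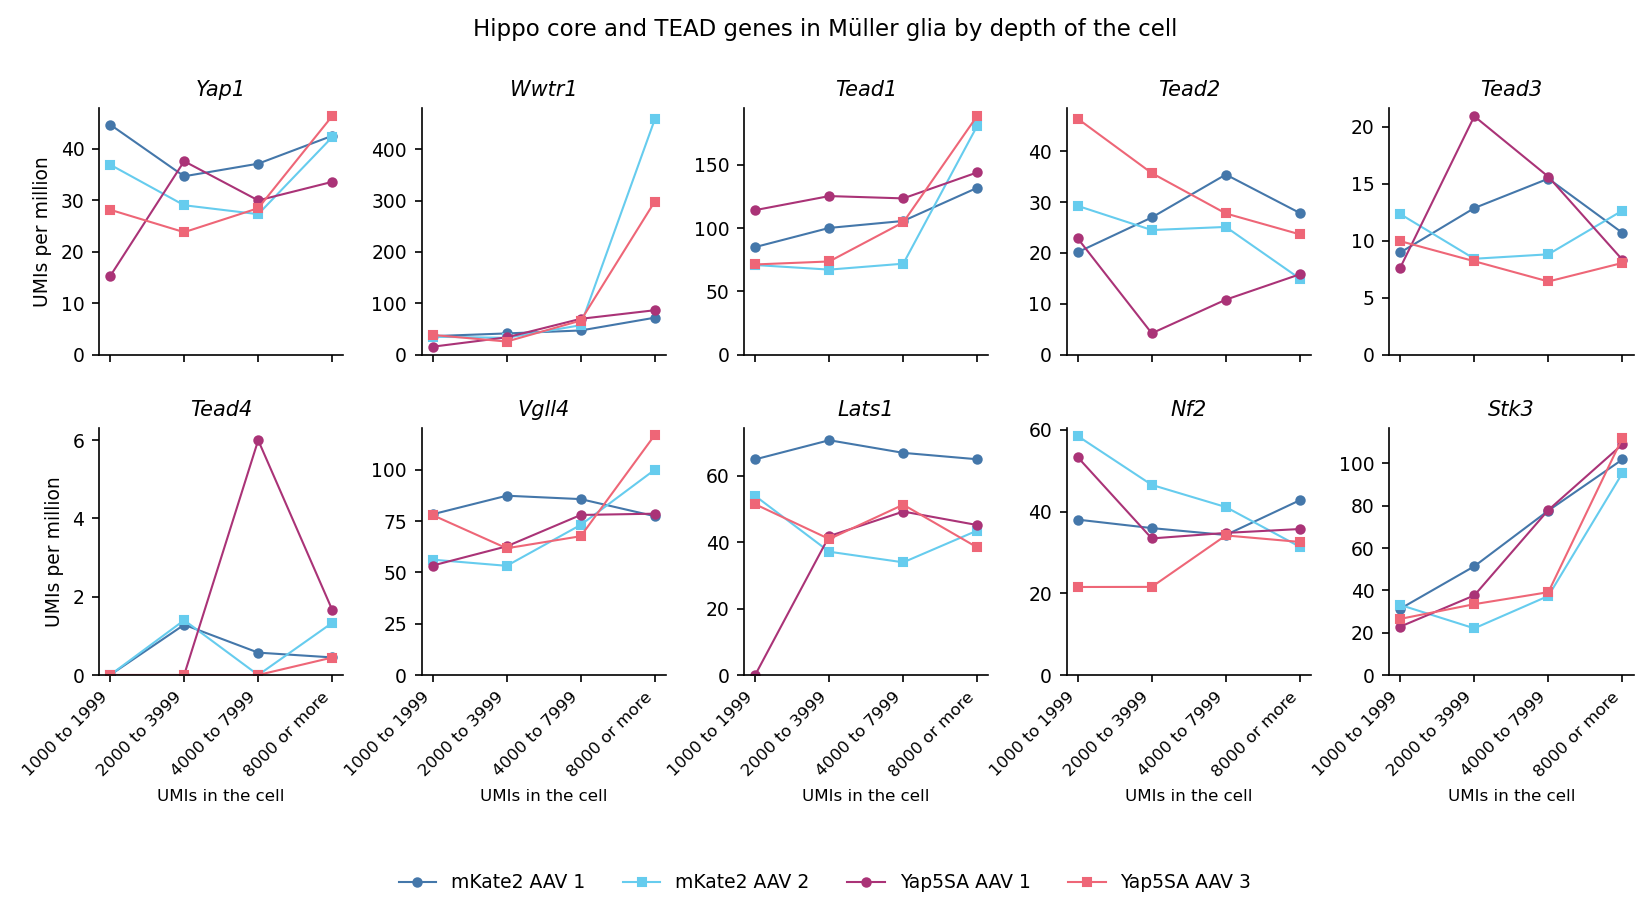
Level of each gene in MG by depth band of the cell (UMIs in the cell), 1 line for each library, in CPM. Stk3 is higher in the deepest band than in every shallower one in all 4 libraries, Wwtr1 climbs most in mKate2 AAV 2 and Yap5SA AAV 3, and Yap1 and Nf2 have no common direction.

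The share of MG with a UMI was compared after thinning each cell of at least 2000 UMIs to 2000. Yap1 was seen in 7.48%, 5.62%, 8.17% and 5.38% of MG (exact Clopper-Pearson 95% intervals 6.05 to 9.12, 4.66 to 6.71, 6.26 to 10.4 and 4.02 to 7.03). It was seen in 0 of 28, 6 of 758, 1 of 136 and 0 of 54 microglia/macrophages. For the counts of 0 the exact interval reached 12.3% and 6.60% of cells with a UMI at this depth. Counts of 0 at 2000 UMIs do not limit the share of cells that express the gene. Median depths before thinning were 8357.5, 4027, 12202.5 and 3937 UMIs in these MG and 15395.5, 4773, 14775.5 and 6258.5 in the microglia/macrophages. Without thinning the group means were 18.2% and 20.3%. Wwtr1 was seen in 10.1%, 13.9%, 14.1% and 10.5%, so that its 4.55-fold range of levels shrank to a range of shares that crossed the groups. Tead1 was seen in 17.6%, 13.2%, 23.5% and 17.3%, and Stk3 in 12.9%, 7.30%, 16.6% and 9.03%. For both of these the 8.0.0 library of each group, whose cells were deeper, had the higher share. An exact two-sided permutation test between AAV groups gave p from 0.333 to 1 for the 10 genes, and since 0.333 is the smallest that 2 against 2 can give, it could not have called a difference. Tead3 (2.42% ± 0.50 against 1.44% ± 0.24, SD, n = 2) and Vgll4 (12.95% ± 0.82 against 12.0% ± 0.13) reached that smallest value in this exact test, their groups not overlapping. The difference of Tead3, Yap5SA minus mKate2, was 0.228 points without thinning and -0.0055 at 1000 UMIs, and that of Vgll4 7.10 and 0.0235, so neither kept its direction and size.

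Of the 4 libraries used, mKate2 AAV library 1 and Yap5SA AAV library 1 had gene lists with an entry for tdTomato, the marker of cells that had received the AAV and Cre. Among MG, 45.1% and 65.1% had a tdTomato UMI, against 3.13% and 3.85% of microglia/macrophages. After thinning to 2000 UMIs, Yap1 was at 51.9 CPM (95% counting interval 35.0 to 74.1) in MG with and 38.3 (29.8 to 48.5) in MG without a tdTomato UMI of mKate2 AAV library 1. In Yap5SA AAV library 1 it was at 36.7 (21.0 to 59.6) with and 42.7 (30.8 to 57.7) without, and in both libraries the intervals overlapped. After thinning 24.3% and 30.7% of these MG kept a tdTomato UMI, so the cells counted as without one include cells that had one before thinning. The intervals of the other 9 genes overlapped as well in both libraries.

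The rest of the pathway was read from a list of 25 further Hippo genes (kinase module, adaptors and cofactors), of which 23 were tested against the classes. In MG 10 were called higher and 1 lower than in amacrine cells, 11 and 1 than in bipolar cells, 11 and 2 than in cones, 13 and 3 than in microglia/macrophages and 12 and 3 than in rods. Over all genes 23.6% to 31.8% were called higher and 12.9% to 22.3% lower in these contrasts. The median log2 difference was 0.57 to 1.08, beside 0.17 to 0.46 over all genes. Amotl2, a junctional protein that binds YAP, Ptpn14, a phosphatase that retains YAP in the cytoplasm, and Vgll3, a TEAD cofactor, were higher in MG in all 5 contrasts, with Amotl2 from 1.36 ± 0.45 (cones) to 4.16 ± 0.44 (microglia/macrophages). Taok3, a kinase upstream of STK3, was lower in MG in all 5, from -1.17 ± 0.37 (amacrine) to -2.80 ± 0.37 (rods). Stk4, the paralog of Stk3, differed only from microglia/macrophages (-1.005 ± 0.21, edgeR, adjusted p = 6.01e-04), and Lats2, the paralog of Lats1, only from rods (-1.01 ± 0.30, 0.0118).

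Of a list of 21 genes described as YAP targets, 18 were tested, and 11 were called higher and 2 lower in MG than in amacrine cells, 11 and 1 than in bipolar cells, 13 and 0 than in cones, 12 and 4 than in microglia/macrophages and 14 and 2 than in rods. The shares called over all genes were those given for the pathway list, 23.6% to 31.8% higher and 12.9% to 22.3% lower. Medians were 1.87 to 4.89, beside the 0.17 to 0.46 of all genes. Ajuba, Ccn1, Ccn2, Crim1, Dock5, F3 and Myof were higher in all 5. The calls of this list and of the pathway list come from the fit that includes the Ccn1-led cluster. Its leading gene is on the target list, and no calls of either list are given without it. F3, which encodes tissue factor, ranged from 3.44 ± 0.42 (microglia/macrophages) to 7.95 ± 0.92 (cones). Ccnd1, which encodes Cyclin D1, was higher in MG than in all 4 kinds of neuron, by 4.18 ± 0.55 to 7.94 ± 0.93, and not than in microglia/macrophages (-0.76 ± 0.34, edgeR, adjusted p = 0.0758). In the AAV comparison of MG, 0 of 23 pathway genes and 0 of 17 targets were called by edgeR, with medians of -0.16 and -0.14 beside -0.03 over all 15285 genes. By Cell Ranger version 1 of 23 pathway genes (Rassf1) and 1 of 17 targets (Ccn1) were called, both higher in the 9.0.1 libraries, where 1.44% of 15285 genes were called. With the AAV as a second term edgeR called 0 genes in all.

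Over the 16 class-by-library sums, the genes most like each of the 9 testable members were found by Pearson's r of log2(CPM + 1) among 14550 genes with at least 10 CPM in 1 sum or more. These are descriptions over points that share libraries and depth. Nearest to Yap1 were Bmpr1b, a BMP receptor (0.97), Hmgn3 (0.96) and Tulp3 (0.96), and nearest to Tead2 were Popdc3 (0.97), Rrh (0.96) and Fzd5, a Wnt receptor (0.96). Wwtr1 had Gpx4 (0.90), Scp2 (0.90) and Rnf7 (0.89). Tead1 had Sptbn1, Mageh1 and Enah (0.97 each), Tead3 had Ubxn8 (0.96), Cd320 (0.96) and Syne3 (0.94), and Vgll4 had Map3k5 (0.92), Notch2 (0.91) and Gsap (0.89). Lats1 had Ccdc47 (0.98), Irf2bp1 (0.97) and Fam229b (0.96), Stk3 had Prkdc (0.95), Pikfyve (0.94) and Zfp641 (0.94), and Nf2 had Atxn1l (0.88), Gm31282 (0.88) and Gm5432 (0.87). Between Yap1 and Wwtr1 themselves r was 0.29, and between Wwtr1 and Tead2 it was 0.84.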

How the data were processed

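The authors deposited UMI counts per gene and cell barcode from 10x libraries, made with Cell Ranger against GRCm39. The submitters' processing notes name version 8.0.0, and the file headers name 8.0.0 for 3 libraries and 9.0.1 for 2. The pooled animals, the sort and the lack of a vector entry bear on every level. No doublet caller was run. Cells with at least 1000 UMIs and at most 15% mitochondrial UMIs were kept, clustered with scanpy 1.11.5 (Leiden resolution 1, 3000 variable genes, 30 components, 15 neighbours), and summed per library and class where a class had 20 cells or more. Depth was 13132765 to 50938304 UMIs per library used. Sums were tested with edgeR 4.0.16 (quasi-likelihood, TMM scaling, low counts filtered, R 4.3.3), Benjamini-Hochberg adjusted over all genes tested and called at an adjusted p under 0.05, with DESeq2 1.42.0 as an alternative. The ± SE of a fold change is the one implied by edgeR's test statistic. Binomial and ratio intervals are 95% and cover counting error only. Tests ran first on simulated data. Members and gene lists were chosen with earlier results of these data known. Named genes were all members, list genes called or among the 2 largest per contrast, and the 3 genes most like each member. One item is not reported here.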

Additional observations from a re-analysis of the deposited data

How the results depend on the processing

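Calls and folds of the Hippo genes were recomputed under each alternative, and 0 genes were called in the AAV comparison of MG in every one. No paired analysis was possible by replicate number because the groups compared share only 1 replicate number among the libraries used. Where no cause is named below, the cause was not tested. Over the AAV comparison of MG, 133 of 137 fold changes outside leave-one-out kept their sign. The 4 that did not were Wwtr1 without the Ccn1-led cluster (0.076), Tead1 (-0.13) and Stk3 (-0.0094) in MG-named clusters alone, and Vgll4 without cells of other named types (5.3e-05). Leaving out each library in turn gave -1.30 to 1.104 for Wwtr1, -0.14 to 0.23 for Tead1, -0.76 to 0.18 for Tead2, -1.66 to 1.196 for Tead4, -0.20 to 0.15 for Vgll4 and -0.11 to 0.24 for Stk3. In microglia/macrophages it gave -1.68 to 0.43 for Wwtr1, -0.89 to 0.36 for Vgll4 and -0.070 to 1.03 for Lats1, with 1 (without mKate2 AAV library 2) to 32 (without Yap5SA AAV library 3) genes called, 18 with no filter and 0 as reported. For the difference between both classes it gave -5.08 to 6.52 for Tead2, -4.97 to 6.02 for Tead3 and -0.56 to 1.098 for Vgll4, with 1 (without Yap5SA AAV library 3) to 149 (without mKate2 AAV library 1) genes called, 0 with DESeq2's size factors, 3 without the Igkc-led cluster and 6 as reported. The contrast by Cell Ranger version called 0 genes with the AAV as a term and 220 without. Against the other classes, thinning to 1000 UMIs called 3939 (amacrine), 4547 (bipolar), 2886 (cone), 3761 (microglia/macrophage) and 4474 (rod) genes, beside 6767, 7233, 6262, 8900 and 7448. Leaving out libraries gave 3319 to 6920 (amacrine), 3477 to 7387 (bipolar), 3335 to 6354 (cone) and 4000 to 7628 (rod), the lowest without mKate2 AAV library 2 (without Yap5SA AAV library 3: 3960, 4357, 3444 and 4674); either leaves 1 library of each neuron, assumed to vary like the others. Signs turned for genes not called: for Stk3 with DESeq2's size factors (bipolar -0.021, cone -0.16), with DESeq2 (-0.047, -0.18), without the Ccn1-led cluster (-0.15, -0.30), on thinning (bipolar -0.82, cone -0.094, microglia/macrophage -0.20), with no filter (rod 0.043) and in MG-named clusters (amacrine 0.089, rod 0.052); for Tead1 on thinning (amacrine -0.0073, cone -0.011); for Lats1 against cones with no filter (0.053) and thinned (0.20); and for Nf2 against cones thinned (-0.15). Leave-one-out ranges that crossed 0 were -0.18 to 0.18 (Lats1, cone), -0.035 to 0.074 (Stk3, cone), -0.0010 to 0.39 (Vgll4, microglia/macrophage) and -0.53 to 0.14 (Nf2, rod). The difference in the share of MG with a UMI, in points, moved without thinning to 8.40 for Wwtr1, 10.04 for Tead1, 0.228 for Tead3, 7.10 for Vgll4 and 1.95 for Nf2, and at 1000 UMIs to -0.0055 for Tead3 and 0.0235 for Vgll4. Over all alternatives it ran from -1.17 to 2.06 for Yap1, -1.54 to 8.40 for Wwtr1 and -2.08 to 0.583 for Tead2. For Lats1 it ran from -3.33 to 1.38 and for Stk3 from -1.05 to 6.91. Only the range of Tead1, 1.91 to 10.04, did not cross 0. Depth limits Tead4, with 2 to 19 UMIs in MG of a library.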
